A study of Mus musculus with 4 samples.

Results

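The expression of 36 macrophage and leukocyte genes was examined in mouse gastrocnemius muscle, a calf muscle of mixed fiber types. The 36 genes were chosen by name, as markers and effector genes of macrophages and other leukocytes, with earlier results of these data known. All 36 were found among the 22252 gene names of the RNA-seq data. RNA-seq was performed on 4 groups of 7-week-old male mice on a C57BL/6J background, lean GRf/f, lean GRmKO, ob/ob GRf/f and ob/ob GRmKO. Mice of all 4 groups carry loxP-flanked alleles of exon 3 of Nr3c1, which encodes the glucocorticoid receptor (GR), and GRmKO mice also carry Acta1-Cre, which acts in myofibers and is not directed at macrophages. The ob/ob mice lack functional leptin and become obese. Each group is represented by 1 library, made from a pool of the RNA of 3 mice. How much mice of a group vary is therefore unknown, and no P value is given. The libraries held from 19897754 to 20959781 expected counts, the read numbers that were estimated for each gene name. Each name carries 1 transcript identifier, and whether a value covers all transcripts of the gene or that transcript alone is not settled by the sources used here. Levels are given as CPM, which scales every library to the same total, and ranges in parentheses are exact 95% confidence intervals that cover counting error only. As a check of the labels, Nr3c1 measured 125 CPM in lean GRf/f, 67.0 CPM in lean GRmKO, 102 CPM in ob/ob GRf/f and 39.1 CPM in ob/ob GRmKO mice. Nr3c1 was thus lower in both GRmKO libraries than in both GRf/f libraries.

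Resident macrophages of skeletal muscle lie between the fibers, take up debris and dying cells, and take part in repair after injury. They depend on signals through the receptor encoded by Csf1r, make the C1q molecule that starts the classical complement pathway, and, in part of the population, present peptides to CD4+ T cells on major histocompatibility complex (MHC) class II molecules. Monocytes enter muscle from blood through the receptor encoded by Ccr2, which binds the chemokine encoded by Ccl2. In whole muscle, RNA of these cells is a small part of the total, and a lower level of their genes can reflect fewer cells or less RNA per cell, which cannot be told apart in these data. The 36 genes together made up 1366 CPM in lean GRf/f (1349.8–1382), 1777 CPM in lean GRmKO (1758–1795), 729.8 CPM in ob/ob GRf/f (718–741) and 565 CPM in ob/ob GRmKO mice (555–576). The lean GRmKO library was thus the highest and the ob/ob GRmKO library the lowest, with no overlap of the counting intervals.

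Among the groups of the list, that of MHC class II had the largest fall in summed level in both genotypes, and promoter sequences of RefSeq on GRCm38.p6 were at hand for 2 of them, H2-Aa and H2-Eb1, which encode an alpha and a beta chain of the class II molecules. They are shown because their promoters are the classical example of a shared control element, the Y box, at which the factor NF-Y binds an inverted CCAAT. The 250 bases before each start of transcription are printed from 5′ to 3′ on the strand of the gene, H2-Aa on the minus strand (chr17:34287824-34288073) and H2-Eb1 on the plus strand (chr17:34305617-34305866), with the letters CTGATTGG and, in H2-Eb1, CCAAT in capitals.
H2-Aa: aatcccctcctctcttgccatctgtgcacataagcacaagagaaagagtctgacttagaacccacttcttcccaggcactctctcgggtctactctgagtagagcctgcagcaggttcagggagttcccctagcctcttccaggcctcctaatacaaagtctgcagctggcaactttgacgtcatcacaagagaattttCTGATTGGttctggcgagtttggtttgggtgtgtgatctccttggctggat
H2-Eb1: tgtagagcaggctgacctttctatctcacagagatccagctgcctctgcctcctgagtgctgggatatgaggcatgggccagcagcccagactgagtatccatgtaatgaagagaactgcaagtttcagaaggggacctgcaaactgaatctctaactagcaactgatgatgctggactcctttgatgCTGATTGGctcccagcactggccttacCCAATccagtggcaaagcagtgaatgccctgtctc
The letters CTGATTGG, which contain an inverted CCAAT, lie from 51 to 44 bases before the start in H2-Aa and from 62 to 55 bases before it in H2-Eb1. These letters were chosen after the sequences had been seen, and on either strand they occur in 4.1% of the 32851 promoters of the table. Entries were found for 25 of the 36 genes, with 28 promoters. CCAAT was present on either strand in 42.9% of these 28 promoters and in 37.4% of all, and GAGGAAGT, a core site of the macrophage factor PU.1, in 10.7% (C1qc, Ctss and Pf4) and 3.2%. TATAAA was present in 17.9% and 13.6%. A match of letters is a description and not evidence of binding.

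Per kilobase of the listed transcript, the mean levels over the 4 libraries ranged from 0.329 CPM for Cx3cr1, the fractalkine receptor, to 134 CPM for Lyz2, which encodes the lysozyme of myeloid cells. Lyz2 was followed on this scale by Cd74, the invariant chain of MHC class II, at 113 CPM per kilobase, and by C1qb, C1qa and H2-Aa at 55.4, 55.0 and 54.8 CPM per kilobase. Apart from Cx3cr1, listed at 0 in lean GRf/f mice, all genes of the list had counts in every library. The lowest of these levels was that of Aif1, at 0.288 CPM in ob/ob GRmKO mice. Csf1r ranged from 33.7 to 96.6 CPM and Mrc1, the mannose receptor, from 26.3 to 66.6 CPM. In contrast, all 7 natural killer cell genes examined, 7 of 11 T cell genes and 6 of 8 B cell genes had means under 10 expected counts, the minimum set for comparison.

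**Figure D1:**
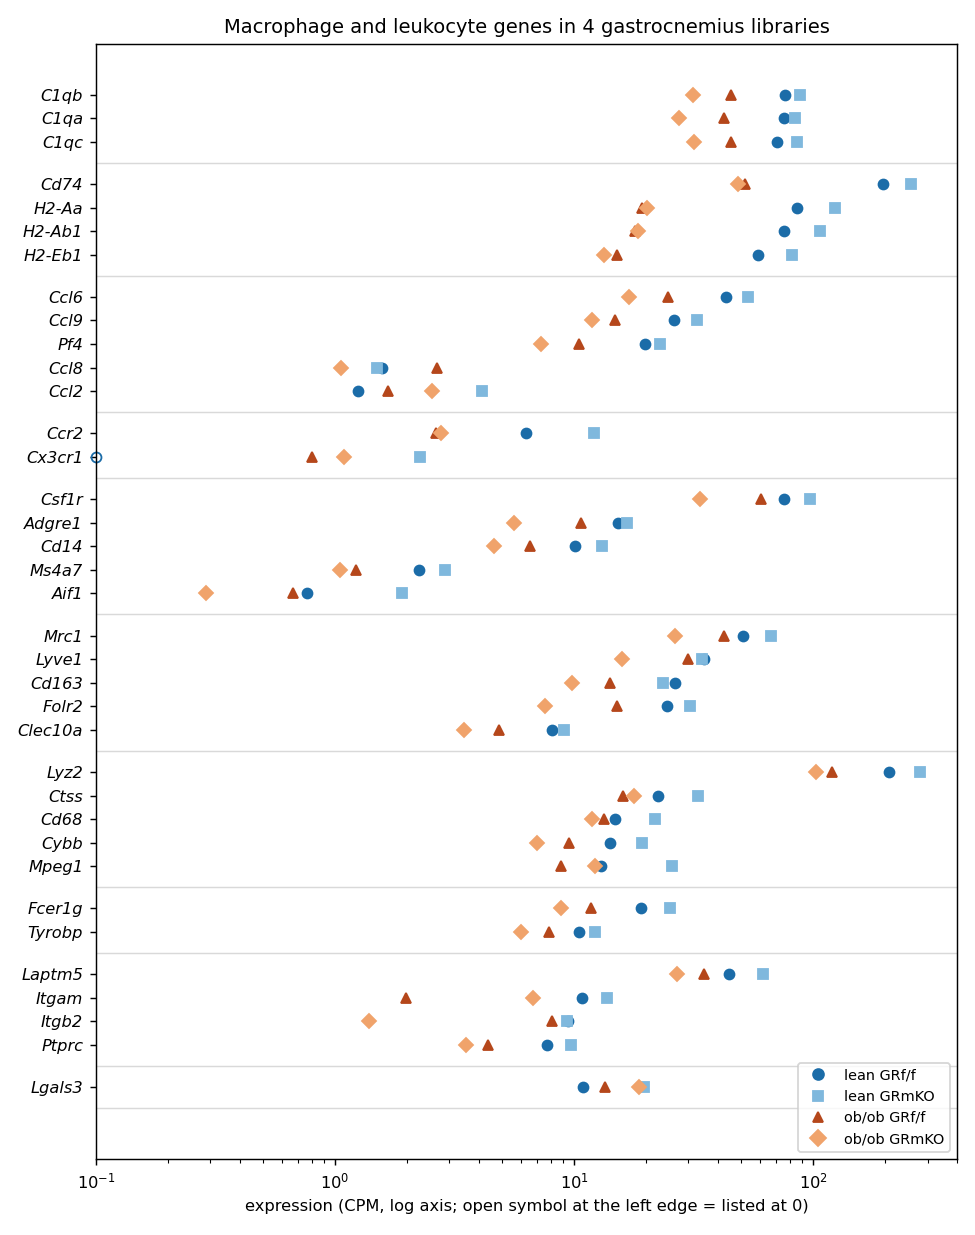
Level of each of the 36 genes (CPM, log axis) in the 4 libraries, 1 point per library, in groups by role. In 32 of the 36 genes the lean GRmKO library is the highest, and in 27 the ob/ob GRmKO library is the lowest, which holds for 39% and 39.9% of all genes tested; Cx3cr1 is listed at 0 in lean GRf/f mice.

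To examine the change with obesity, ob/ob mice were compared with lean mice of the same genotype. Lack of leptin and obesity come together in ob/ob mice and cannot be told apart in these data. Obesity here therefore names the comparison of ob/ob with lean mice. Log2 changes were computed on CPM after 2 expected counts had been added, over the 13540 genes with a mean of at least 10 expected counts, all 36 genes of the list included, and a gene was counted as lower or higher at a change of 2-fold or more. In GRf/f mice, 6 of the 36 genes (16.7%) were lower in ob/ob mice, and 5.82% of all genes tested were. These 6 genes were Cd74, H2-Aa, H2-Ab1, H2-Eb1, Itgam and Ccr2. In GRmKO mice, 30 of the 36 genes (83.3%) were lower in ob/ob mice, and 9.45% of all genes tested were. The same 6 genes were lower in GRmKO mice too, so that 16.7% of the list and 2.19% of all genes tested were lower in both genotypes. Itgam passed 2-fold in GRmKO mice by CPM alone (−1.03), with −0.82, −0.81 and −0.95 under the 3 other scalings, which left 5 of the 36 genes (13.9%) lower in both genotypes, and 1.51% of all genes tested with TMM factors. The median log2 change of the 36 genes was −0.66 in GRf/f and −1.44 in GRmKO mice, and that of all genes tested was −0.11 and −0.20. Cx3cr1 was the 1 gene that was higher in ob/ob GRf/f mice (2.78%, with 3.29% of all genes tested), and 0 of 36 were higher in ob/ob GRmKO mice (2.95% of all genes tested). With TMM factors, which set the median of all genes tested close to 0, 6 and 25 of the 36 genes were lower (4.96% and 6.09% of all genes tested), with medians of −0.54 and −1.24. The 5 genes that passed 2-fold in ob/ob GRmKO mice by CPM but not with TMM factors were Itgam, Tyrobp, Laptm5, Lyve1 and Mpeg1. The obesity comparisons of the 2 genotypes share no library. The log2 change was more negative in GRmKO than in GRf/f mice for 35 of the 36 genes (97.2%), and for 57.7% of all genes tested; with TMM factors these shares were 97.2% and 47.6%. Itgam was the exception. Whether this difference exceeds the variation between mice was not tested, since each change rests on 1 library per group.

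**Figure D2:**
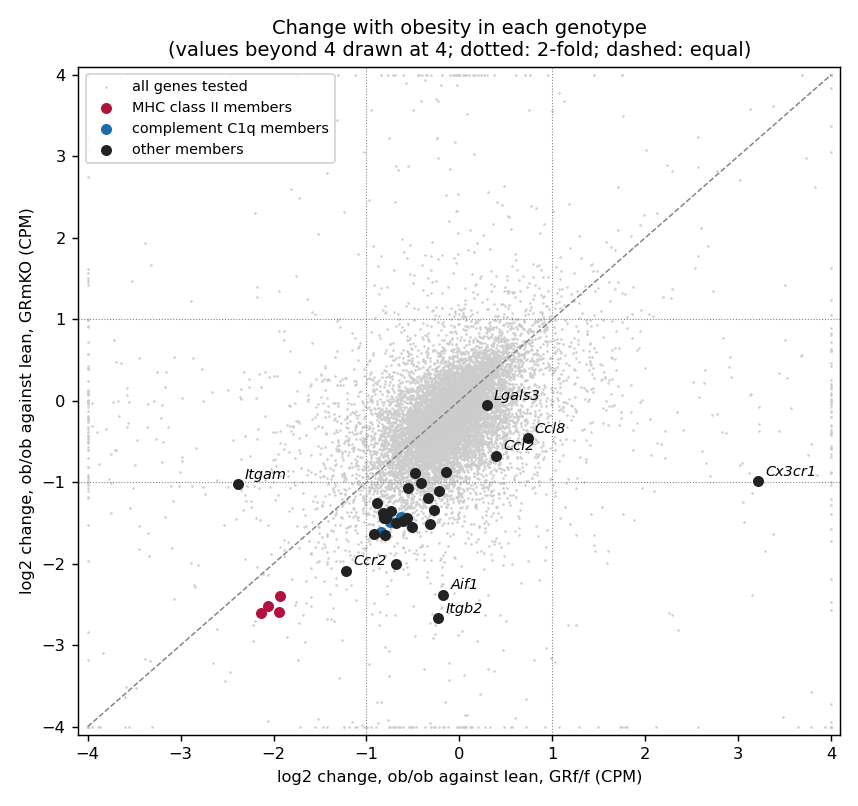
Log2 change of ob/ob against lean mice in GRf/f (horizontal) and GRmKO mice (vertical) for all genes tested (gray) and the 36 genes (large points), with dotted lines at 2-fold and a dashed line at equal change. The 4 MHC class II genes lie lowest along the diagonal, with medians of −2.00 and −2.56, and most of the others lie beyond −1 in GRmKO but not in GRf/f mice; values beyond 4 are drawn at 4.

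The genes of MHC class II presentation were the most abundant group of the list in lean mice and were lower in ob/ob mice of both genotypes. Their summed level was 415 CPM in lean GRf/f (406–424), 567 CPM in lean GRmKO (556–577), 104 CPM in ob/ob GRf/f (99.5–108) and 101 CPM in ob/ob GRmKO mice (96.3–105). It was 3.99-fold lower in ob/ob than in lean GRf/f mice and 5.64-fold lower in ob/ob than in lean GRmKO mice. The counting intervals of the ob/ob libraries overlapped each other, and those of the lean libraries did not. H2-Aa (ENSMUSG00000036594.15), which encodes the alpha chain of I-A, lies on chromosome 17 of GRCm38 from 34282744 to 34287823, between H2-Ab1 (34257689 to 34269419), the beta chain of I-A, and H2-Eb1 (34305867 to 34316674), the beta chain of I-E. H2-Aa measured 85.0 CPM in lean GRf/f (81.1–89.1), 123 CPM in lean GRmKO (118–128), 19.2 CPM in ob/ob GRf/f (17.4–21.2) and 20.1 CPM in ob/ob GRmKO mice (18.3–22.2). Its log2 change in ob/ob mice was −2.14 (−2.30 to −1.99) in GRf/f and −2.60 (−2.76 to −2.46) in GRmKO mice. H2-Ab1 measured 75.1 CPM in lean GRf/f, 107 CPM in lean GRmKO, 18.0 CPM in ob/ob GRf/f and 18.5 CPM in ob/ob GRmKO mice, with log2 changes of −2.06 and −2.52. The level of H2-Eb1 was 58.6 CPM in lean GRf/f, 81.0 CPM in lean GRmKO, 15.2 CPM in ob/ob GRf/f and 13.3 CPM in ob/ob GRmKO mice, with log2 changes of −1.95 and −2.60. All 3 genes of the locus thus had both lean libraries above both ob/ob libraries. Cd74, which lies elsewhere in the genome and encodes the chaperone of class II molecules, measured 196 CPM in lean GRf/f, 256 CPM in lean GRmKO, 51.5 CPM in ob/ob GRf/f and 48.6 CPM in ob/ob GRmKO mice. Its log2 changes were −1.93 and −2.40, close to those of the class II chains.

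Other genes of the class II pathway were compared with these. Of 10 that passed the minimum, 5 were lower by 2-fold or more in ob/ob mice of each genotype and 0 were higher. Ciita, the transactivator that switches on class II genes, measured 2.02 CPM in lean GRf/f, 2.86 CPM in lean GRmKO, 0.477 CPM in ob/ob GRf/f and 0.809 CPM in ob/ob GRmKO mice, with log2 changes of −1.88 and −1.71. H2-DMa, H2-DMb1 and H2-DMb2, which encode the chains of the peptide editor H2-M, had log2 changes of −1.26, −1.43 and −1.53 in GRf/f and −1.43, −1.85 and −1.98 in GRmKO mice. H2-Ob, a chain of H2-O, which restrains H2-M, had log2 changes of −1.68 and −1.13 at levels of 1.06 CPM or less, and with TMM factors it did not reach 2-fold in GRmKO mice. The subunits of the RFX complex, which binds class II promoters in many cell types, were near the same level in lean and ob/ob mice. Rfx5, Rfxank and Rfxap had log2 changes of 0.12, −0.09 and −0.07 in GRf/f and of 0.04, 0.09 and 0.06 in GRmKO mice. Of the proteases of the pathway, Lgmn had log2 changes of 0.06 and −0.21 and Ctsh of −0.38 and −0.93.

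A ratio within a library does not depend on the scaling between libraries. The summed counts of the 4 class II genes divided by those of the 3 C1q genes were 1.87 in lean GRf/f (1.80–1.94), 2.20 in lean GRmKO (2.13–2.28), 0.781 in ob/ob GRf/f (0.738–0.826) and 1.11 in ob/ob GRmKO mice (1.05–1.19). This ratio was 2.39-fold lower in ob/ob than in lean GRf/f mice and 1.98-fold lower in ob/ob than in lean GRmKO mice, with counting intervals that did not overlap. Class II genes took 30.4% and 31.9% of the summed CPM of the 36 genes in lean GRf/f and lean GRmKO mice, and 14.2% and 17.8% in ob/ob GRf/f and ob/ob GRmKO mice.

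**Figure D3:**
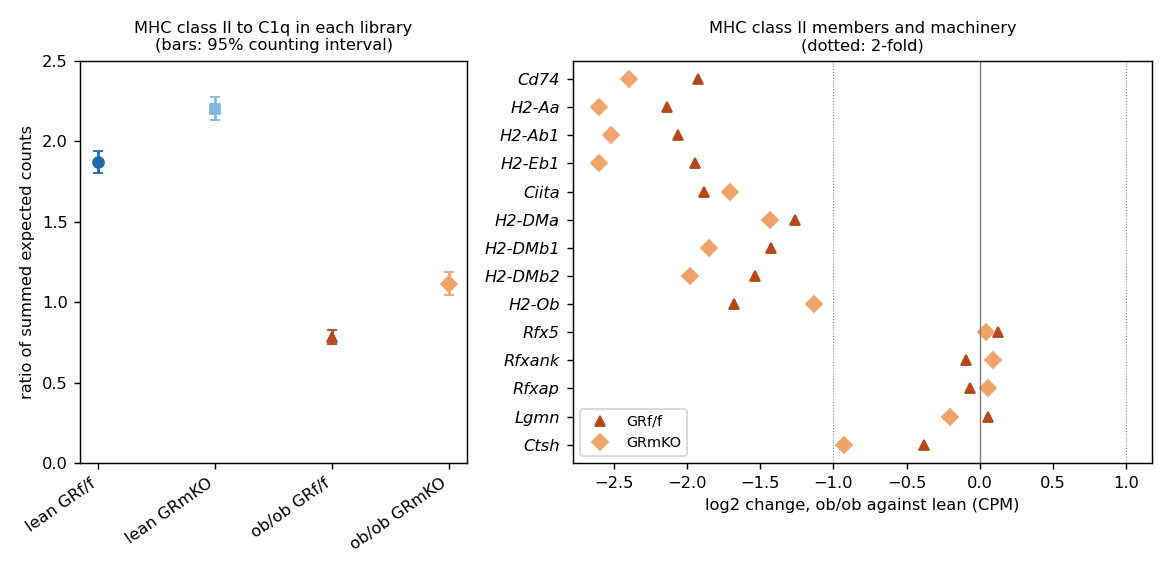
Left, summed expected counts of the MHC class II genes divided by those of the C1q genes in each library, with 95% counting intervals; right, log2 change of ob/ob against lean mice in each genotype for the class II genes and their pathway. The ratio is 1.87 and 2.20 in lean and 0.781 and 1.11 in ob/ob libraries, and Rfx5, Rfxank and Rfxap lie near 0 while all genes above them lie beyond −1.

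The C1q genes were lower in ob/ob mice of both genotypes, past 2-fold in GRmKO mice. C1qa, C1qb and C1qc encode the 3 chains of C1q and lie side by side on the minus strand of chromosome 4, from 136880129 (C1qb) to 136898803 (C1qa). Their summed level was 222 CPM in lean GRf/f (216–228), 257 CPM in lean GRmKO (250.2–264), 133 CPM in ob/ob GRf/f (128–138) and 90.2 CPM in ob/ob GRmKO mice (86.1–94.3). It was thus 1.67-fold lower in ob/ob GRf/f and 2.85-fold lower in ob/ob GRmKO mice than in their lean counterparts. C1qa measured 75.6 CPM in lean GRf/f, 83.8 CPM in lean GRmKO, 42.1 CPM in ob/ob GRf/f and 27.3 CPM in ob/ob GRmKO mice, with log2 changes in ob/ob mice of −0.84 (−0.96 to −0.72) and −1.61 (−1.76 to −1.48). The other chains behaved alike, with C1qb at −0.74 and −1.49 and C1qc at −0.63 and −1.43. In each of the 3 genes the 4 libraries had the same order, lean GRmKO, lean GRf/f, ob/ob GRf/f and ob/ob GRmKO from high to low. Of 14 other complement genes that passed the minimum, 3 were lower by 2-fold or more in ob/ob GRf/f and 11 in ob/ob GRmKO mice, with medians of −0.36 and −1.26. The 3 were C3, the central component of the cascade (−1.16 and −2.26), C7, a part of the membrane attack complex (−1.33 and −1.97), and Cfp, which encodes properdin (−1.04 and −1.87). With TMM factors the counts were 2 and 8, and Cfp did not reach 2-fold in GRf/f mice. C3 and C7 are also made by other cells of muscle, such as fibroblasts.

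**Figure D4:**
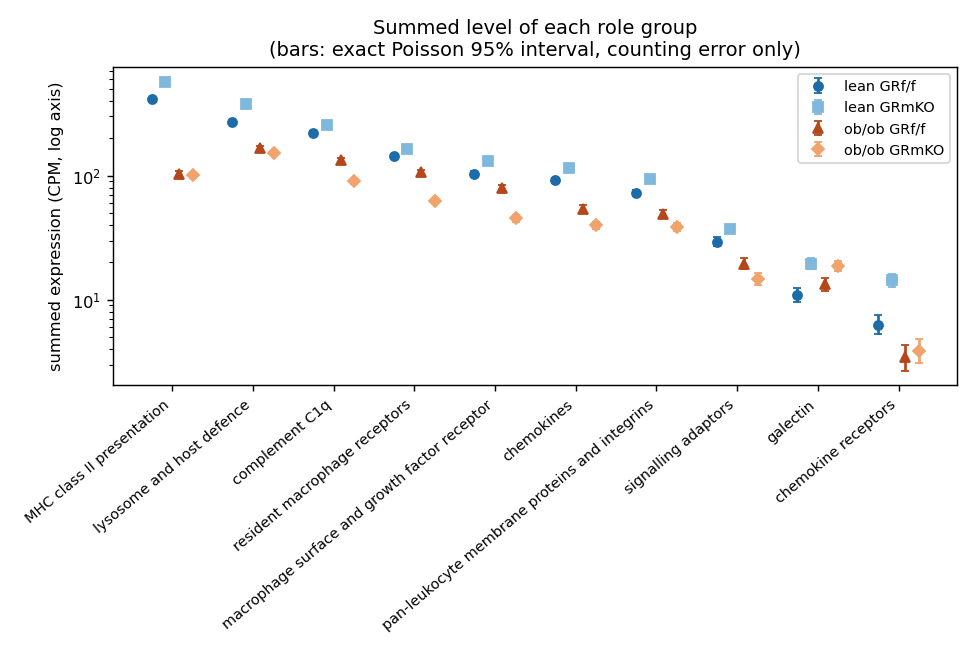
Summed level (CPM, log axis) of the 36 genes by role in the 4 libraries, with exact Poisson 95% intervals that cover counting error only. Every role group except the galectin Lgals3 has both lean libraries above both ob/ob libraries, and the class II group has the widest gap.

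All 5 genes of macrophage surface proteins were lower by any amount in ob/ob mice of both genotypes, and 50.2% of all genes tested were. The 5 genes had median log2 changes of −0.51 in GRf/f and −1.52 in GRmKO mice. Past 2-fold, 0 of 5 were lower in GRf/f and 5 of 5 in GRmKO mice, beside 5.82% and 9.45% of all genes tested. Csf1r, the receptor for the growth factors that keep macrophages alive, measured 75.2 CPM in lean GRf/f (71.6–79.1), 96.6 CPM in lean GRmKO (92.4–101), 60.4 CPM in ob/ob GRf/f (57.1–63.8) and 33.7 CPM in ob/ob GRmKO mice (31.2–36.2). Its log2 change was −0.32 (−0.43 to −0.21) in GRf/f and −1.52 (−1.65 to −1.40) in GRmKO mice. The ligands of this receptor differed less in GRmKO mice, with Csf1 at −0.88 and Il34 at −0.87. In GRf/f mice these ligands were at −0.26 and −0.19, near the −0.32 of Csf1r. Adgre1, which encodes the macrophage marker F4/80, measured 15.3 CPM in lean GRf/f, 16.5 CPM in lean GRmKO, 10.7 CPM in ob/ob GRf/f and 5.60 CPM in ob/ob GRmKO mice, with log2 changes of −0.51 and −1.55. Cd14, the coreceptor for lipopolysaccharide, had log2 changes of −0.61 and −1.48, and Ms4a7, a membrane protein of macrophages, of −0.82 and −1.37. Aif1, which encodes the calcium-binding protein IBA1, had log2 changes of −0.17 (−1.35 to 0.92) and −2.38 (−4.27 to −1.48), at levels between 0.288 and 1.91 CPM where the counting error is wide.

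All 5 receptors typical of resident macrophages were lower by any amount in ob/ob mice of both genotypes, and 50.2% of all genes tested were. The 5 receptors had median log2 changes of −0.68 in GRf/f and −1.34 in GRmKO mice. Past 2-fold, 0 of 5 were lower in GRf/f and 5 of 5 in GRmKO mice, beside 5.82% and 9.45% of all genes tested. With TMM factors the latter count was 4 of 5, without Lyve1 (−0.91). Mrc1 measured 50.8 CPM in lean GRf/f, 66.6 CPM in lean GRmKO, 42.1 CPM in ob/ob GRf/f and 26.3 CPM in ob/ob GRmKO mice, with log2 changes of −0.27 (−0.40 to −0.14) and −1.34 (−1.49 to −1.20). Folr2, a folate receptor of tissue-resident macrophages, measured 24.3 CPM in lean GRf/f, 30.6 CPM in lean GRmKO, 15.1 CPM in ob/ob GRf/f and 7.58 CPM in ob/ob GRmKO mice, with log2 changes of −0.68 and −2.00. Cd163, the scavenger receptor for hemoglobin bound to haptoglobin, is itself known as a target of glucocorticoids. It measured 26.3 CPM in lean GRf/f (24.1–28.6), 23.6 CPM in lean GRmKO (21.5–25.9), 14.2 CPM in ob/ob GRf/f and 9.83 CPM in ob/ob GRmKO mice. The log2 changes of Cd163 in ob/ob mice were −0.89 (−1.10 to −0.68) and −1.26 (−1.51 to −1.03). Like Lyve1 and Itgb2, Cd163 was highest in lean GRf/f mice, with overlapping counting intervals of the lean libraries. Its log2 change in lean GRmKO against lean GRf/f mice was −0.15 (−0.33 to 0.03), and a part of glucocorticoids in it was not tested. Lyve1, which encodes a hyaluronan receptor of perivascular macrophages and of lymphatic endothelium, had log2 changes of −0.22 and −1.11. The summed level of the 6 lymphatic endothelial genes examined had log2 changes of −0.30 and −0.60. Clec10a, a galactose-binding lectin, had log2 changes of −0.73 and −1.36.

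All 5 genes of the lysosome and of host defense were lower by any amount in ob/ob mice of both genotypes, and 50.2% of all genes tested were. The 5 genes had median log2 changes of −0.55 in GRf/f and −1.07 in GRmKO mice. Past 2-fold, 0 of 5 were lower in GRf/f and 3 of 5 in GRmKO mice, beside 5.82% and 9.45% of all genes tested. With TMM factors the latter count was 2 of 5, without Mpeg1 (−0.86). Lyz2 measured 207 CPM in lean GRf/f (200–213), 278 CPM in lean GRmKO (271–286), 119.7 CPM in ob/ob GRf/f (115–124) and 102 CPM in ob/ob GRmKO mice (97.9–107), with log2 changes of −0.79 and −1.44. Reads of its near-identical paralog Lyz1 may be divided between the genes, and Lyz1 had log2 changes of −2.06 and −2.14 at levels of 17.2 CPM or less. Cybb, the catalytic subunit of the phagocyte NADPH oxidase, had log2 changes of −0.56 and −1.44. Mpeg1, which encodes the pore-forming protein perforin-2, measured 12.9 CPM in lean GRf/f, 25.7 CPM in lean GRmKO, 8.77 CPM in ob/ob GRf/f and 12.2 CPM in ob/ob GRmKO mice. It was thus higher in GRmKO than in GRf/f mice of either background, and its log2 changes in ob/ob mice were −0.55 and −1.07. Cathepsin S (Ctss), which cleaves the invariant chain, and Cd68, a glycoprotein of lysosomes, did not reach 2-fold in either genotype. Ctss had log2 changes of −0.48 and −0.89, and Cd68 of −0.14 (−0.39 to 0.09) and −0.87 (−1.11 to −0.65).

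Chemokine genes of the list fell into 2 sets. Ccl6 and Ccl9, neighbors on chromosome 11 that encode CC chemokines of myeloid cells, and Pf4, platelet factor 4, were lower in ob/ob mice of both genotypes. Ccl6 measured 42.9 CPM in lean GRf/f, 53.2 CPM in lean GRmKO, 24.6 CPM in ob/ob GRf/f and 16.9 CPM in ob/ob GRmKO mice, with log2 changes of −0.80 and −1.65. Ccl9 had log2 changes of −0.81 and −1.45 and Pf4 of −0.92 and −1.64, with both lean libraries above both ob/ob libraries in each gene. Ccl2 and Ccl8, which attract monocytes, were low in every library, between 1.06 and 4.11 CPM. Ccl2 measured 1.25 CPM in lean GRf/f (0.818–1.84), 4.11 CPM in lean GRmKO (3.28–5.12), 1.67 CPM in ob/ob GRf/f (1.16–2.32) and 2.54 CPM in ob/ob GRmKO mice (1.90–3.31). Its log2 change in ob/ob mice was 0.40 (−0.36 to 1.21) in GRf/f and −0.67 (−1.23 to −0.19) in GRmKO mice. Ccl8 had log2 changes of 0.73 (0.10 to 1.42) and −0.46 (−1.39 to 0.32). Neither gene differed by 2-fold between ob/ob and lean mice.

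The receptor for Ccl2 differed from its ligand. Ccr2, the marker of monocytes and of macrophages derived from them, measured 6.29 CPM in lean GRf/f (5.28–7.49), 12.1 CPM in lean GRmKO (10.6–13.7), 2.64 CPM in ob/ob GRf/f (1.98–3.42) and 2.77 CPM in ob/ob GRmKO mice (2.10–3.58). Its log2 changes in ob/ob mice were −1.22 (−1.75 to −0.80) and −2.09 (−2.56 to −1.70). Cx3cr1 was listed at 0 in lean GRf/f mice and had 45.0 expected counts in lean GRmKO, 16.8 in ob/ob GRf/f and 22.9 in ob/ob GRmKO mice. Set against a floor of 3 counts in the lean GRf/f library, its level was 5.54-fold higher in ob/ob GRf/f and 15.6-fold higher in lean GRmKO mice. The counting intervals of these 2 log2 changes began at 2.03 and 3.61 and had no upper limit. The log2 change of Cx3cr1 in ob/ob GRmKO mice was −0.99. Of 17 other chemokine and receptor genes that passed the minimum, 5 were lower by 2-fold or more in ob/ob GRf/f and 12 in ob/ob GRmKO mice. The 5 were Cxcl9, a chemokine induced by interferon gamma (−2.84 and −2.29), Ccl24 and Ccl11, which attract eosinophils (−1.51 and −1.63, −1.31 and −1.79), Cxcl14 (−1.10 and −1.76) and Ccl19, which attracts cells that express CCR7 (−1.02 and −1.83). With TMM factors the counts were 3 and 9, and Ccl19 and Cxcl14 did not reach 2-fold in GRf/f mice.

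Fcer1g and Tyrobp, adaptors that pass on signals of activating receptors in myeloid cells, were lower by 2-fold or more in ob/ob GRmKO mice (−1.51 and −1.01) and not in ob/ob GRf/f mice (−0.68 and −0.42). With TMM factors Tyrobp was at −0.80 in ob/ob GRmKO mice and did not reach 2-fold. Of the membrane proteins that leukocytes share, Ptprc, which encodes CD45, measured 7.68 CPM in lean GRf/f, 9.70 CPM in lean GRmKO, 4.37 CPM in ob/ob GRf/f and 3.52 CPM in ob/ob GRmKO mice, with log2 changes of −0.80 (−1.19 to −0.42) and −1.44 (−1.86 to −1.06). Laptm5, a lysosomal membrane protein of blood cells, had log2 changes of −0.34 and −1.19, the latter −0.99 with TMM factors. Itgam and Itgb2, which encode the 2 subunits of the integrin CD11b/CD18, did not follow each other. Itgam measured 10.8 CPM in lean GRf/f, 13.8 CPM in lean GRmKO, 1.98 CPM in ob/ob GRf/f and 6.71 CPM in ob/ob GRmKO mice, with the lowest value in ob/ob GRf/f mice. Itgb2 measured 9.46 CPM in lean GRf/f, 9.34 CPM in lean GRmKO, 8.06 CPM in ob/ob GRf/f and 1.39 CPM in ob/ob GRmKO mice, with the lowest value in ob/ob GRmKO mice. Lgals3, which encodes galectin-3, a lectin of activated macrophages and also of other cells, was the gene of the list that differed least in GRmKO mice. It measured 10.9 CPM in lean GRf/f (9.51–12.4), 19.5 CPM in lean GRmKO (17.6–21.5), 13.4 CPM in ob/ob GRf/f (11.8–15.0) and 18.7 CPM in ob/ob GRmKO mice (17.0–20.7). Its log2 change in ob/ob GRmKO mice was −0.06 (−0.26 to 0.15) by CPM and 0.15 with TMM factors.

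The effect of muscle GR loss was examined by comparing GRmKO with GRf/f mice within each background. These comparisons use the same 4 libraries as those of obesity and are not independent of them. In lean mice, 32 of the 36 genes were higher in GRmKO than in GRf/f mice, with a median log2 change of 0.37, and 57.5% of all genes tested were higher, with a median of 0.04. Of these, 3 of the 36 genes (8.33%) were higher by 2-fold or more, with 3.27% of all genes tested, and 0 were lower by that much, with 3.11% of all genes tested. The 3 were Ccl2 (1.65, with an interval of 1.07 to 2.41), Aif1 (1.21, 0.43 to 2.25) and Cx3cr1. Mpeg1 (0.99) and Ccr2 (0.93) lay just under 2-fold. In ob/ob mice, 27 of the 36 genes were lower in GRmKO than in GRf/f mice, with a median log2 change of −0.40, and 56.1% of all genes tested were lower, with a median of −0.04. Of the 36 genes, 2 were lower by 2-fold or more (5.56%), Itgb2 (−2.46) and Ccl8 (−1.26), with 4% of all genes tested, and Itgam (1.71) was the 1 gene higher by that much (2.78%, with 3.24% of all genes tested). The class II genes lay between −0.19 and 0.07, whereas Csf1r (−0.84), Mrc1 (−0.68), Adgre1 (−0.92), Folr2 (−0.99) and Lyve1 (−0.91) were further from 0. With TMM factors 32 and 27 genes were again higher and lower, respectively, with 48.9% and 49.7% of all genes tested.

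Other macrophage genes, listed apart from the 36, were counted in the same way. That list, too, was chosen with earlier results of these data known. Of 57 such genes, 53 passed the minimum, and of these 10 were lower by 2-fold or more in ob/ob GRf/f and 34 in ob/ob GRmKO mice, with medians of −0.57 and −1.27 and none higher by 2-fold in either genotype. The 7 that were lower in both were Fcrls (−1.39 and −2.38) and Fcgr4 (−1.33 and −2.26), relatives in the Fc receptor family, Cd86 (−1.34 and −1.85), a costimulatory ligand for T cells, Cd52 (−1.41 and −1.48), Clec7a (−1.04 and −1.81), which encodes the beta-glucan receptor dectin-1, Ly86 (−1.21 and −1.37) and the kinase Lyn (−1.01 and −1.27). With TMM factors the counts were 7 and 30, and Clec7a and Lyn did not reach 2-fold in GRf/f mice. A list of genes of inflammatory cytokines and of macrophage polarization was examined too. Of its cytokine genes, Tnf, Il1b, Il6 and Il10 were scarcely detected, each with a mean under 10 expected counts. Of 4 genes of this list that passed the minimum, Retnla, a gene of alternatively activated macrophages, was lower by 2-fold or more in both genotypes (−1.37 and −2.54).

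Genes of other cell types were examined as well. The 12 muscle fiber genes had medians of 0.20 and 0.29, and their summed level was between 136899 and 164673 CPM. Of 10 endothelial genes, 0 were lower by 2-fold or more in ob/ob GRf/f and 1 in ob/ob GRmKO mice (medians −0.35 and −0.71). Of 12 genes of fibroblasts and fibro-adipogenic progenitors, 0 and 6 were lower (0 and 3 with TMM factors, medians by CPM −0.28 and −0.99). Col1a1 (1.68) and Col1a2 (1.43), which encode the chains of type I collagen, were higher by 2-fold or more in ob/ob GRf/f mice, and the summed fibroblast level had log2 changes of 0.49 and −0.38, against the sign of the median in GRf/f mice. Of 12 adipocyte genes, 2 and 2 were lower (medians −0.25 and −0.22). The adipocyte genes past 2-fold in both genotypes were Cfd, which encodes adipsin (−4.20 and −4.01), Retn, which encodes resistin (−1.16 and −1.02), and, in the other direction, Lep, the leptin gene itself (2.29 and 2.82). The titin gene Ttn was the 1 muscle fiber gene past 2-fold (1.31 and 1.76). Of 7 erythroid genes that passed the minimum, 6 and 6 were lower (medians −1.23 and −1.24), with summed levels of 2233, 2129.6, 973 and 874 CPM in lean GRf/f, lean GRmKO, ob/ob GRf/f and ob/ob GRmKO mice. The 6 were Slc4a1 (−2.82 and −2.02), the anion exchanger of red cells, Alas2 (−1.82 and −1.08), which starts heme synthesis there, and the globin genes Hbb-bs, Hbb-bt, Hba-a1 and Hba-a2, between −1.14 and −1.36. Erythroid genes can mark blood that remained in the tissue. Their median fall was larger than that of the 36 genes in GRf/f mice (−1.23 and −0.66) and smaller in GRmKO mice (−1.24 and −1.44). Among 6 dendritic cell genes, 3 and 3 were lower and 0 and 1 higher (medians −1.18 and −0.93), among them Cd209a, a lectin of monocyte-derived dendritic cells (−1.77 and −2.51), and Flt3, the receptor for the growth factor of dendritic cells (−1.54 and −1.32). Dendritic cells also express the class II genes. The 5 mast cell genes had medians of 0.04 and −0.98, the 5 neutrophil genes of −0.78 and −0.81, the 4 T cell genes of −0.65 and −1.25, the 3 platelet genes of −0.06 and −0.33 and the 8 satellite cell genes of 0.30 and −0.48. The 2 B cell genes that passed were Ighm, the immunoglobulin mu chain (−1.34 and 0.31), and Igkc, the kappa chain (−0.61 and −1.67). The summed level of the 8 B cell genes was 64.1 CPM in lean GRf/f, 90.2 CPM in lean GRmKO, 25.8 CPM in ob/ob GRf/f and 109.5 CPM in ob/ob GRmKO mice, the highest in the last of these. Since only these 2 genes passed the minimum, the sum is mostly Ighm and Igkc RNA. Whether it follows the number of B cells was not tested. B cells too express class II genes. Single genes of these lists lower in both genotypes were Cd2 of T cells (−1.01 and −1.80), S100a9 of neutrophils (−2.74 and −1.14) and Ppbp of platelets (−2.06 and −1.52), each at 2.47 CPM or less. With TMM factors, Alas2, Retn, Cd2 and S100a9 did not reach 2-fold in both genotypes. The part of blood content, of the fraction of muscle fiber RNA and of other cell types in the values of the 36 genes was not tested.

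**Figure D5:**
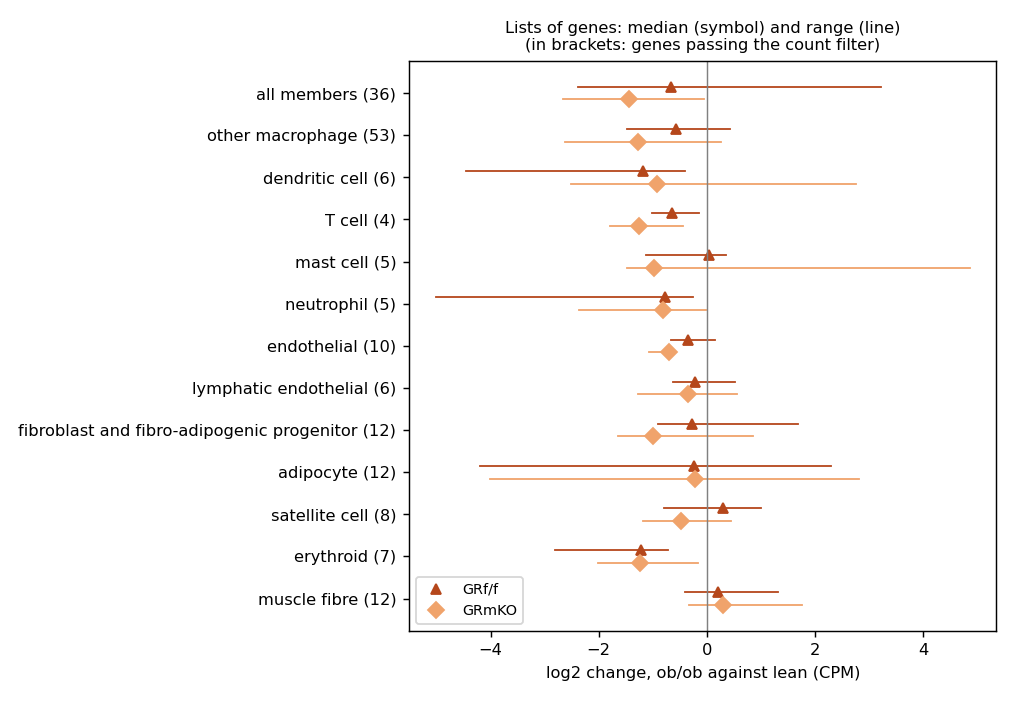
Median (symbol) and range (line) of the log2 change of ob/ob against lean mice in GRf/f and GRmKO mice for the 36 genes and for lists of other cell types, with the number of genes that passed the minimum in brackets. The 36 genes and, among others, the other macrophage, fibroblast and mast cell genes have lower medians in GRmKO than in GRf/f mice. Erythroid genes have about the same median in both, which is below that of the 36 genes in GRf/f mice only.

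Among genes with at least 2 protein-coding transcripts 2.16% (178 of 8233) had 1 library under 1/10 of the mean of the other 3, against 0.164% (5 of 3051) of genes with 1 such transcript, at a mean of at least 50 counts in the other libraries. Without that minimum, Cx3cr1 was the 1 gene of the list with such a library, that of lean GRf/f mice. Of the 36 genes, 12 have 1 protein-coding transcript, namely the 3 C1q genes, Mrc1, Lyz2, Cd14, Ccl2, Ccl6, Ccl8, Ccl9, Lyve1 and Mpeg1. Of these 12, 0 were lower by 2-fold or more in ob/ob GRf/f and 10 in ob/ob GRmKO mice, with medians of −0.62 and −1.44. The class II genes, Itgam, Itgb2, Aif1, Cx3cr1 and Ccr2 have more than 1, and whether the libraries divided their reads alike between transcripts was not tested. The annotated span of Itgam overlaps Gm49368 on the same strand, that of Cx3cr1 overlaps Csrnp1, Gorasp1 and Xirp1 on the same strand and Ttc21a and Wdr48 on the other, and those of Csf1r and Ccl2 each overlap 1 gene on the opposite strand, so that reads of shared stretches may be divided between these genes.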

How the data were processed

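Pooled RNA of 3 mice per group was sequenced by the authors as paired-end reads, quantified with Salmon v1.2.1, and imported with tximport (summary to genes, length-scaled TPM) in R v3.5.0. The paper also states that transcript identifiers were turned into gene names. Of entries with the same name, only that with the most counts was kept. Whether a value covers all transcripts of a gene is therefore not settled. The authors deposited expected counts, not normalized between the 4 libraries, under 22252 gene names (19897754 to 20959781 in all, a floor of 3 counts being 0.143 to 0.151 CPM). Groups followed the sample labels. CPM was computed over all gene names. Log2 changes used a prior of 2 counts over the 13540 genes with a mean of at least 10, and 2-fold was the limit. Exact Poisson (levels) and conditional binomial (changes) 95% intervals on rounded counts used scipy 1.17.1 in Python 3.11.15. They treat the estimated counts as counts of reads. The intervals of changes were tested on simulated Poisson counts, which follow the model that these intervals assume. With 1 library per group no test between groups was made. The 36 genes, all of which are described, and the other lists were chosen with earlier results of these data known. From the other lists, genes past 2-fold in both genotypes were named, with further genes of these lists given for their role after their values had been seen. Alternatives were TMM factors (edgeR 4.0.16) and DESeq2 1.42.0 size factors in R 4.3.3, used for scaling of rounded counts only, other filters, priors and fold limits, and library sizes without the 50 most abundant genes. Coordinates are from GENCODE M21 (GRCm38).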

Additional observations from a re-analysis of the deposited data

Results flagged for a closer look

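For 14 genes the change with muscle GR loss had opposite directions in lean and ob/ob mice. Each was higher in lean GRmKO than in lean GRf/f mice and lower in ob/ob GRmKO than in ob/ob GRf/f mice, with counting intervals that excluded equal levels in both backgrounds. These were 38.9% of the 36 genes, and 6.1% of all genes tested met the same rule. With TMM factors 12 of the 36 (33.3%) and 4.2% of all genes tested did, C1qa and Pf4 no longer among them. The log2 change in ob/ob mice minus that in lean mice was −0.77 for C1qa, −0.75 for C1qb and −0.80 for C1qc. It was −1.20 for Csf1r, −1.07 for Mrc1, −1.31 for Folr2, −0.87 for Cd14 and −0.82 for Fcer1g. For Lyz2 it was −0.66, for Cybb −0.88 and for Laptm5 −0.85. For the chemokines Ccl6, Ccl9 and Pf4 it was −0.85, −0.63 and −0.72. These differences were not tested, because each group is 1 library, and lean GRmKO and ob/ob GRmKO mice are each the same library in all 14 genes. For 1 gene, Cx3cr1, the change with obesity had opposite directions in GRf/f and GRmKO mice, with counting intervals that excluded equal levels in both genotypes. Ccl2, Ccl8 and Lgals3 also had opposite signs by CPM but did not meet this rule. The change of Cx3cr1 was 2.47 in GRf/f mice, taken over the floor of 3 counts because it is listed at 0 in lean GRf/f mice. In GRmKO mice it was −0.99. The difference of −3.46 was not tested either.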

How the results depend on the processing

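The counts, medians and summed levels of the list that moved by more than 1.5 times or out of their interval were as follows. In ob/ob against lean GRf/f mice, the number of genes higher by the limit was 0 without the filter, with counts above 0 in all libraries, with a mean of at least 50 counts, and among genes with 1 transcript, and 2 at a limit of 1.5-fold; the number lower was 20 at 1.5-fold and 0 among genes with 1 transcript. In ob/ob against lean GRmKO mice, the median was −1.24 with TMM and −1.23 with DESeq2 factors, and 10 genes with 1 transcript were lower. These were 83.3% of the 12 such genes, the same share as among the 36. Counts among genes with 1 transcript are out of 12, and those at a mean of 50 counts out of 31. Such counts can move with the size of the set alone. Between genotypes, the number higher in lean GRmKO mice was 0 at 50 counts, 6 at 1.5-fold and 1 with 1 transcript. In ob/ob GRmKO mice the number lower was 1, 9 and 1 under these settings, the number higher was 0 with 1 transcript, and the median there was −0.53. Summed levels in lean GRf/f, lean GRmKO, ob/ob GRf/f and ob/ob GRmKO mice were 1316, 1651, 760.4 and 606 CPM with TMM factors, 1312, 1651, 760.5 and 609 CPM with DESeq2 factors, 2496, 3238, 1366 and 1089.9 CPM without the 50 most abundant genes, and 744, 932, 506 and 363 CPM without Lyz2 and the class II genes. The other 90 of these values and counts stayed within those bounds. Of 576 values of single genes under other settings, 40 moved out of their counting interval, 18 with TMM factors, 21 with DESeq2 factors and 1 without the 50 most abundant genes, these 40 by at most 0.21 on the log2 scale. The largest move of all was 1.95, with a prior of 0.5 counts. Under that prior the change of Cx3cr1 in ob/ob GRf/f mice was 5.09, against 3.21 with a prior of 2 counts, inside an interval without an upper limit. Of the 576, 573 kept their sign, and the 3 that did not were the change of Lgals3 in ob/ob GRmKO mice, at 0.15 with TMM, 0.16 with DESeq2 factors and 0.02 without the 50 most abundant genes. Genes with 1 transcript were set apart after the data had been seen. No paired analysis was possible because each group is 1 library and the labels carry no replicate numbers, and no library could be left out. The depth limits genes near 1 CPM (Aif1, Cx3cr1, Ms4a7, Ccl8), whose intervals span up to several-fold.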
